A study of Homo sapiens with 18 samples.

Results

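Long intergenic noncoding RNA (LINC) genes were followed through neuronal differentiation of SH-SY5Y cells, an established neuroblastoma cell line with sympathetic features. The genes were chosen by symbol and by level: all rows of the expression table whose symbol is LINC plus a number and whose mean over the 18 libraries was at least 0.5 FPKM (fragment counts divided by transcript length and by the mapped fragments of a library). This selected 178 of 876 LINC symbols and of 26372 symbols in all. Of the others, 440 lay above 0 and below that mean and 258 were listed at 0 in every library. Since the genes were selected on their mean level, that level is given as a description only. Just inside the limit were LINC00494 with a mean of 0.503, LINC01411 with 0.505 and LINC00327 with 0.520 FPKM, and just outside were LINC00235 with 0.478, LINC00582 with 0.476 and LINC01289 with 0.467 FPKM.

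All cells received ZNHIT3, a zinc-finger protein linked to the assembly of small nucleolar RNA particles, on a lentiviral plasmid derived from FUGW. The 3 constructs were the wild type (WT), the C14R substitution and a deletion labelled ∆251-254, ∆251-255 or ∆251-256 in replicates 1, 2 and 3. The series design names ∆251-254 alone, and these libraries, which the titles group together, were analysed as 1 deletion group; whether they carry 1 construct or 3 cannot be told from the labels. Each was sampled at day 0 and at day 18 of induction in serum-free neurobasal/B27 medium with BDNF, KCl, dibutyryl cyclic AMP and all-trans retinoic acid, with 3 libraries in each of 6 groups. No group without a construct is analysed here, and the labels describe no change to the cells' own ZNHIT3. Day 0 and day 18 differ in time and in medium, which cannot be told apart. Nothing in the labels says whether the 3 libraries of a group came from separate cultures, so p-values measure the spread between these libraries, which may be technical.

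LINC genes carry a systematic symbol given to long transcripts that lie outside known protein-coding genes and have no known protein product. Such RNAs are often less abundant and more restricted to a cell type than messenger RNAs. Known modes of action range from binding proteins in the cytoplasm or nucleus to an effect of transcription on a gene nearby, and some transcripts first named LINC turned out to encode microproteins.

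The symbols only partly fitted the label of intergenic noncoding RNA. In the current RefSeq annotation 163 of the 178 were lncRNA genes, 13 were protein-coding and 2 were transcribed pseudogenes, and 41 now carry another symbol. In the reference annotation of GRCh38, 44 overlapped another protein-coding gene, 20 of them on the same strand, and 134 overlapped no other. A coding record under a gene's own current symbol was not counted as an overlap. Genes that were both lncRNA in RefSeq and free of coding overlap numbered 124. How the deposited values divided reads between overlapping genes is not given in the sources used here.

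ZNHIT3 itself was at 538 ± 6.33 FPKM in WT, 424 ± 7.09 in C14R and 303 ± 9.40 in the deletion at day 0, and at 1153 ± 46.1, 653 ± 88.9 and 302 ± 9.89 at day 18 (SD, n = 3 each). For each comparison with WT at each day the libraries did not overlap, and the exact two-sided permutation p was 0.1, the smallest that 3 against 3 libraries allow. By limma, the linear-model test used below, the deletion differed from WT at day 0 and day 18 (limma adjusted p = 5.5e-06 and 1.8e-11). C14R differed at day 18 (limma adjusted p = 1.1e-05) and was not called at day 0 (limma adjusted p = 0.40). Of 8 sympathetic markers 7 had a mean of at least 0.5 FPKM. The 8 summed to 781 to 849 FPKM at day 0 and 1133 to 1302 at day 18, 4 higher and 2 lower. Marker calls here are those of the average over the 3 lines, by which 43.9% of all tested genes were higher and 39.1% lower. The lower sympathetic markers were GATA3 and CHGA. CHGA overlapped between days and was not called in deletion cells (log2 change 0.03, limma adjusted p = 0.74). TH, the rate-limiting enzyme of catecholamine synthesis, lay under 0.5 FPKM and was not tested, with means of 0.031 at day 0 and 0.640 at day 18. The summed level of 6 neuronal maturation genes was 737 to 796 FPKM at day 0 and 1487 to 1728 at day 18, with all 6 higher, and that of 5 proliferation genes 289 to 320 and 111 to 142, with all 5 lower. The 5 mesenchymal markers summed to 81.7 to 86.1 and 70.1 to 78.8 FPKM, 1 higher and 3 lower, and the 5 glial markers to 3.12 to 4.78 and 7.26 to 9.16 FPKM, 2 higher and 1 lower. Relative depth, read from the steps between low values, was 57.3% to 83.8% of the deepest library at day 0 and 81.3% to 100% at day 18. The small nucleolar RNA gene SNORD3A made up 6.87% to 58.6% of a library's FPKM sum at day 0 and 1.01% to 15.1% at day 18. The part of these shifts in the day differences of LINC genes was not tested.

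Levels of LINC RNA were low and uneven. The median of the 178 means was 1.89 FPKM, 137 genes reached 1 FPKM and 23 reached 10 FPKM. The 178 values summed to 966 to 1035 FPKM at day 0 and to 1226 to 1291 at day 18, with no overlap between days. The single gene LINC00657 (NORAD) gave 14.7% to 15.6% of that sum at day 0 and 16.7% to 18.5% at day 18, and the top 5 together gave 40.6% to 42.5% and 38.0% to 41.2%.

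More LINC genes rose than fell over differentiation. At an adjusted p under 0.05 (limma on log2(FPKM + 1), Benjamini-Hochberg over all 14910 genes at or above the same mean), 104 of the 178 differed between days in WT, against 70.5% of all tested genes. There, 75 were higher at day 18, against 37.8% of all genes, and 29 were lower, against 32.7%. C14R cells gave 111 calls (background 71.2%), 75 higher (37.5%) and 36 lower (33.8%). Deletion cells gave 111 (71.5%), 81 higher (38.3%) and 30 lower (33.2%). As an average over the 3 lines, 135 differed (background 83%), 94 higher (43.9%) and 41 lower (39.1%).

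The same direction was called in all 3 lines for 61 higher genes, or 34.3% of the 178, against 32.7% of all tested genes. It was called for 24 lower genes, or 13.5%, against 28.4%. In no line was a difference called for 42, or 23.6%, against 18.6%, and opposite calls in different lines were made for 0, against 0.101%. The share that rose was thus near the background and the share that fell lay below it. The median change of the 178 was 0.22 on the log2(FPKM + 1) scale and that of all tested genes 0.03. Under rescaling without small RNA genes the 2 medians were 0.37 and 0.20, a shift of the whole scale, and the calls in all 3 lines became 75 higher (42.1%, against 44.2% of all genes) and 17 lower (9.55%, against 19.5%). With quantile normalization they were 52 higher (29.2%, against 30.5%) and 31 lower (17.4%, against 30.2%). The mean of at least 0.5 FPKM was met at both days by 152 genes, by 21 at day 18 only and by 5 at day 0 only, and those 26 could pass it only by being higher at one day. Among the 152, 45 rose and 20 fell in all 3 lines. The matching shares of all genes that met the mean at both days were not computed. These 2 counts therefore have no background beside them.

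**Figure D1:**
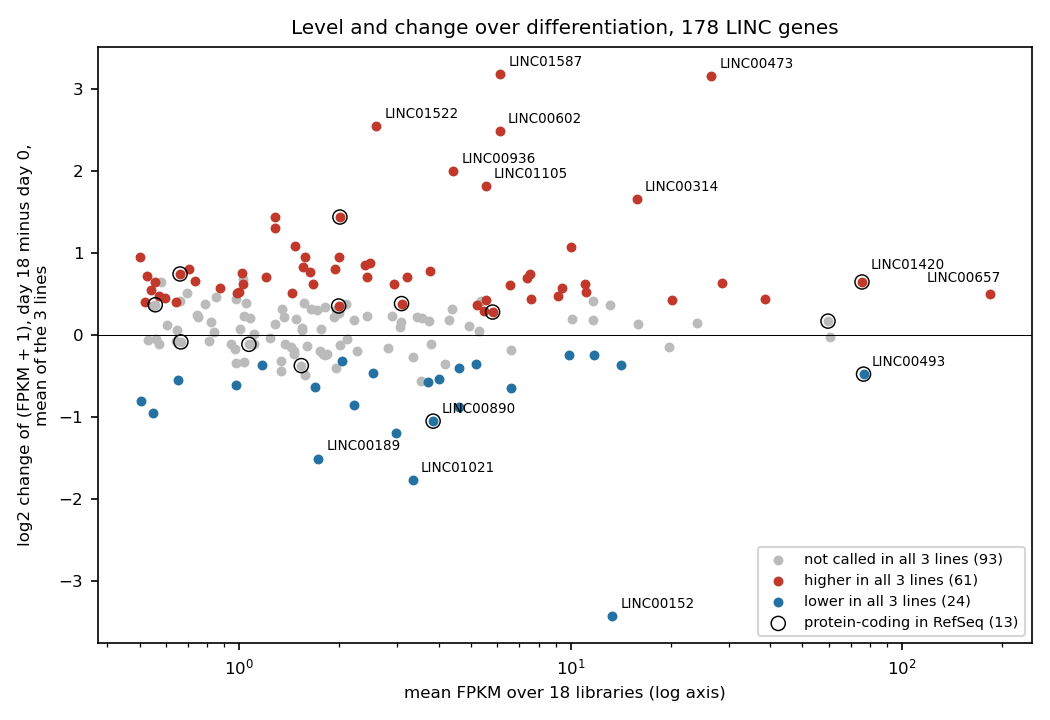
Mean FPKM over the 18 libraries (log axis) against the log2 change of (FPKM + 1) from day 0 to day 18, averaged over the 3 lines, for 178 LINC genes; colours mark the 61 genes higher and 24 lower in all 3 lines, circles the 13 protein-coding ones. LINC01587 is highest at a log2 shift of 3.18 and LINC00152 lowest at -3.43, while the most abundant gene, LINC00657, changed by 0.50.

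Among genes called in all 3 lines, 12 LINC genes rose by at least 1 on the log2 scale, or 6.74% of the 178, against 7.04% of all tested genes. By the same rule 5 fell, or 2.81%, against 6.43%. Genes named from here on as the largest rises or falls were chosen as those with the largest average change among genes called in all 3 lines whose 9 libraries of each day did not overlap. That pool held 44 higher genes (background 28.7%) and 20 lower (25.4%). In bulk RNA a higher value can come from more RNA per cell or from more cells of a kind, and these cannot be told apart.

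Among the largest rises were 2 overlapping genes at the PDE10A locus on chromosome 6. LINC00473 is known as a noncoding RNA induced by cyclic AMP signalling through the transcription factor CREB. It lies at chromosome 6, 165924048 to 165988039, on the minus strand (RefSeq, GRCh38.p14), and overlaps PDE10A on the same strand, with starts 39 bases apart. PDE10A encodes a phosphodiesterase that breaks down cyclic nucleotides. LINC00602 lies on the plus strand at 165987551 to 165989615 (GENCODE 29, GRCh38), starts 488 bases from LINC00473 and overlaps it in antisense.

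LINC00473 stood at 3.74, 4.13 and 4.59 FPKM in the WT libraries of day 0 and at 41.8, 47.9 and 49.4 at day 18. In C14R it was at 5.65, 4.78 and 4.98, then at 53.3, 47.4 and 48.8 FPKM. In deletion cells the values were 3.47, 4.58 and 5.27, then 50.5, 46.9 and 50.4 FPKM. The days were far apart in each line. At day 0 the C14R libraries lay above the WT libraries, a difference that was not called, and at day 18 the constructs overlapped. The mean rose 10.6-fold, from 4.58 ± 0.703 to 48.5 ± 3.18 FPKM (SD, n = 9 each), with log2 changes of 3.20, 3.05 and 3.22 in WT, C14R and deletion (average 3.16, SE 0.06, limma adjusted p = 3.8e-18).

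LINC00602 ranged from 0.858 to 1.53 FPKM at day 0 (median 1.06) and from 7.89 to 12.8 at day 18 (median 11.2), without overlap. Its average log2 change was 2.49 (SE 0.09, limma adjusted p = 2.0e-14). PDE10A, which is no LINC gene, went from 5.93–6.98 FPKM to 22.6–28 FPKM, a log2 shift of 1.79. The 3 overlapping rows therefore rose together, and since the counting of strand is not given in the sources used here, reads of one may have been counted for another.

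**Figure D2:**
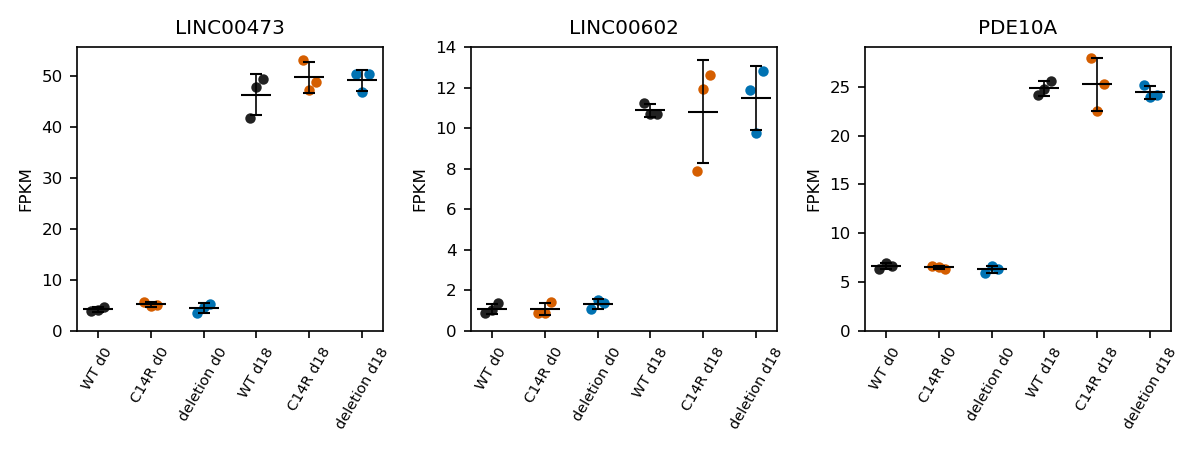
FPKM of LINC00473, LINC00602 and PDE10A in each of the 18 libraries, by construct and day (d0, d18), each panel on its own linear axis; points are libraries, horizontal bars the group mean and whiskers 1 SD (n = 3). In all 3 panels every day 18 library lies above every day 0 library, and construct means within a day lie close together beside that gap.

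The start regions of this pair are printed because the genes rose together in a medium that contains dibutyryl cyclic AMP. CREB is known to bind the motif TGACGTCA and its shorter form TGACG. Each window runs from 250 bases before to 50 bases after the RefSeq start (GRCh38.p14), LINC00473 at chr6:165987990-165988289 on the minus strand and LINC00602 at chr6:165987301-165987600 on the plus strand. Capitals mark TGACG and, read on the other strand, CGTCA, its reverse complement.
LINC00473: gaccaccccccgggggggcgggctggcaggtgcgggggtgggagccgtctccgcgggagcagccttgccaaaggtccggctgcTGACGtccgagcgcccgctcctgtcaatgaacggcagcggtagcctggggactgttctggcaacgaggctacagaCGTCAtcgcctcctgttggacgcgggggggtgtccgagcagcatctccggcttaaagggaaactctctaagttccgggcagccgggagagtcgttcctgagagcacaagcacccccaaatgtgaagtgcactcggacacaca
LINC00602: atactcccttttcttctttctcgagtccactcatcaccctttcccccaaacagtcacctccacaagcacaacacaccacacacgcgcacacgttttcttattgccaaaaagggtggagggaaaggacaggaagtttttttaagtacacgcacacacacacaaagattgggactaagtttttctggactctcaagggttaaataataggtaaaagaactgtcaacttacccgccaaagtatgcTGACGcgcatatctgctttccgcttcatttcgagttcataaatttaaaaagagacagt

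The LINC00473 window holds matches 167 and 92 bases before the start, and that of LINC00602 holds 1 match 8 bases before it. Matches were searched on both strands, and the longer motif also counts as the shorter one. The shorter motif TGACG was found in 25.0% of all 27305 RefSeq promoter windows of the same length and in 35 of the 141 windows of the LINC genes that had one (24.8%). The longer motif TGACGTCA was found in 1.98% of all windows and 3 of the 141 (2.13%). The retinoic acid receptor half-site AGGTCA was in 13.9% and 15.6%, and the E-box CACGTG in 7.43% and 11.3%. The counts for the largest rises and falls leave out windows on chromosome 8, where LINC01607 lies, while the 141 do not. Of the 12 largest rises, 9 had a window counted and 3 of these held TGACG, and of the 12 largest falls 11 had one and 2 held it.

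The largest average rise was that of LINC01587 on chromosome 4 (5524569 to 5527801, plus strand), which overlaps no coding gene. It ranged from 0.103 to 1.06 FPKM at day 0 (median 0.332) and from 10.2 to 13.8 at day 18 (median 11.3), and its log2 change was 3.18 (SE 0.10, limma adjusted p = 2.6e-15). LINC01522 (chromosome 20, 47980488 to 47988744, minus strand) was listed at 0 in 6 of the 9 day 0 libraries and at no more than 0.103 FPKM in the others. At day 18 it lay between 2.86 and 6.66 FPKM, a log2 shift of 2.55 (SE 0.09). Both genes passed the mean of 0.5 FPKM through day 18 alone.

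Further rises included LINC01105 and LINC00936. LINC01105, now SILC1, is known for supporting expression of the neuronal transcription factor gene SOX11, whose start is 240020 bases away. It went from 1.56–2.2 FPKM (median 1.90) to 8.22–9.54 (median 9.32), a log2 shift of 1.81 (SE 0.04, limma adjusted p = 9.7e-17). The days did not overlap, and SOX11 stood at 101 to 111 FPKM and 167 to 182 FPKM. LINC00936, now ATP2B1-AS1, lies antisense to ATP2B1, a calcium pump of the plasma membrane, with starts 341 bases apart. It ranged from 0.979 to 1.5 FPKM and then from 6.92 to 9.30 (log2 change 2.00, SE 0.05), while ATP2B1 ranged from 19.7 to 23.0 and from 37.9 to 44.7 (log2 change 0.85).

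LINC00314 varied widely between libraries. It lay between 3.01 and 11.3 FPKM at day 0 (median 7.19) and between 21.2 and 26.8 at day 18 (median 24.4), a log2 shift of 1.66 (SE 0.12). LINC00476, now ERCC6L2-AS1, had the smallest SE of the 12 largest rises, at 5.60 to 6.58 and 13.3 to 14.8 FPKM (log2 change 1.07, SE 0.03). ERCC6L2, which it overlaps on the opposite strand with starts 276 bases apart, was at 14.1 to 16 and 14.4 to 17.7 FPKM, and its change of 0.05 was not called (limma adjusted p = 0.21).

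LINC01607 starts 279 bases from HEY1, a Notch target gene, on the opposite strand and pointing away from it. It was at 0.196 to 0.893 FPKM and 1.08 to 3.63 FPKM (log2 change 1.08, SE 0.14), and HEY1 at 8.93 to 11.3 and 16.6 to 19.5 FPKM (log2 change 0.77). LINC01260 rose by 1.44 (SE 0.10) and LINC00525 by 1.31 (SE 0.06), from medians of 0.191 and 0.221 FPKM to 2.32 and 2.27 FPKM. Both had day 0 means under 0.5 FPKM.

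The largest fall was that of LINC00152, now CYTOR, an RNA associated with proliferation and migration of cancer cells. The WT libraries of day 0 held 23.9, 29.2 and 20.7 FPKM, the C14R libraries 21.9, 17.3 and 22.2, and the deletion libraries 38.9, 36.2 and 15.9. At day 18 WT held 3.63, 3.07 and 1.5, C14R 0.516, 2.42 and 1.49, and deletion cells 0, 0.537 and 1.16 FPKM. No day 18 library reached a day 0 library, and the average log2 change was -3.43 (SE 0.20, limma adjusted p = 2.8e-11). LINC00152 has a near-identical copy, MIR4435-2HG, whose row had means of 14.6 and 0.957 FPKM, so how reads were shared between the copies is uncertain.

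LINC01021, now PURPL, is known as a target and regulator of p53. It lay between 4.74 and 7.81 FPKM at day 0 (median 5.49) and between 0.316 and 1.70 at day 18 (median 0.970), a log2 shift of -1.77 (SE 0.09, limma adjusted p = 2.4e-12). LINC00189 overlaps the transcription factor gene BACH1 on the same strand, with starts 591 bases apart, and went from 1.79–4.42 FPKM to 0.074–0.898 FPKM (log2 change -1.51, SE 0.10). BACH1 fell much less, from 21.5–23.2 FPKM to 16.8–20.6 FPKM (log2 change -0.28). LINC00189 passed the mean of 0.5 FPKM through day 0 alone.

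LINC00312, which overlaps LMCD1 on the same strand, fell from 3.97–5.65 FPKM to 1.04–1.77 FPKM (log2 change -1.19, SE 0.06). LINC00311 was at 0.707 to 1.36 FPKM and then at 0 to 0.128 FPKM (log2 change -0.95, SE 0.06), and LINC01411 at 0.490 to 1.44 and 0 to 0.148 FPKM (log2 change -0.80, SE 0.07). The last pair was under 0.5 FPKM on average at day 18, and each was listed at 0 in 2 libraries. LINC00665 fell from a median of 6.25 to 3.24 FPKM (log2 change -0.87, SE 0.12), LINC01250 from 2.36 to 1.07 (-0.63, SE 0.06) and LINC01424 from 1.29 to 0.530 (-0.61, SE 0.10).

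**Figure D3:**
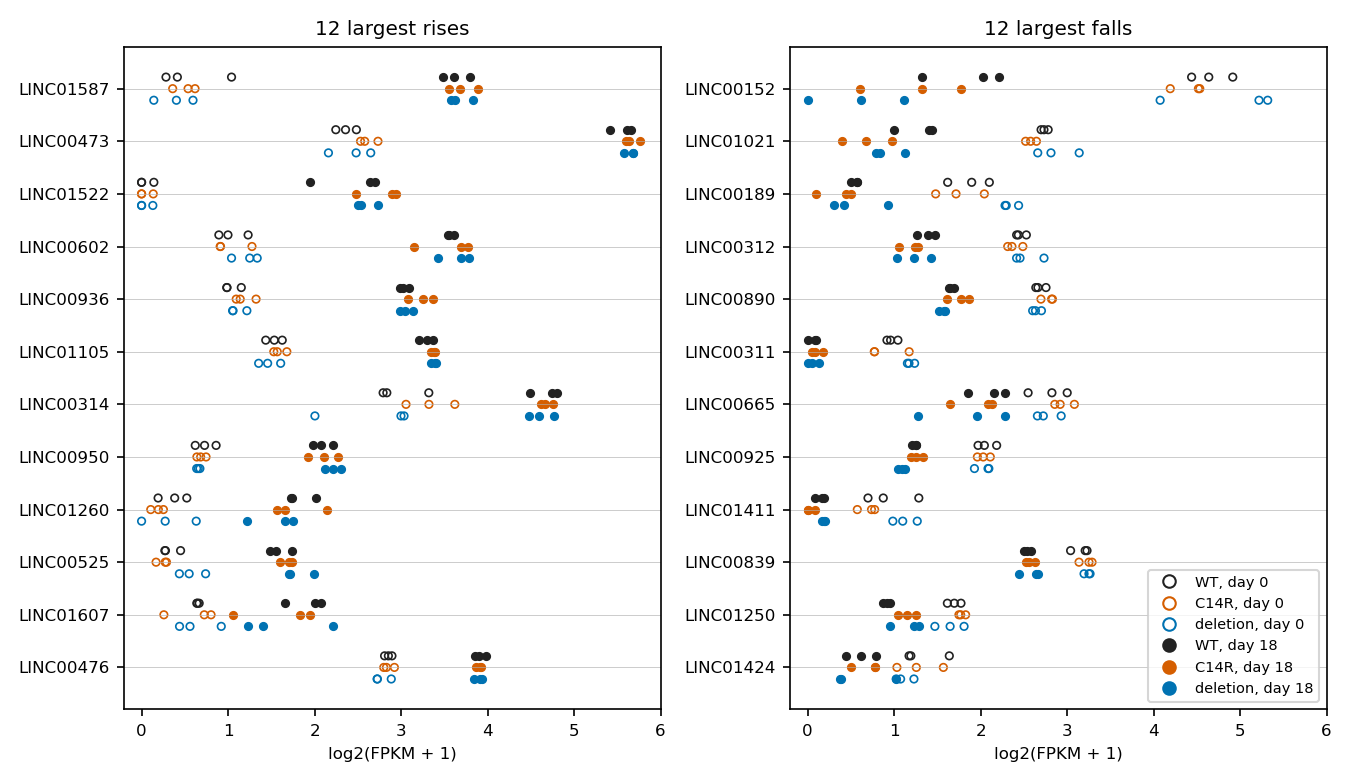
Log2(FPKM + 1) of the 12 largest rises (left) and the 12 largest falls (right) in each of the 18 libraries; open points are day 0, filled points day 18, and colours and rows within a gene mark the constructs. Genes were chosen for days that do not overlap; within a day the 3 constructs intermingle for most of them, and LINC00152 spreads most.

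The most abundant LINC gene was LINC00657, now NORAD, which is known to bind Pumilio proteins and to protect chromosome stability. It was at 145 to 156 FPKM at day 0 (median 153) and 206 to 239 at day 18 (median 213), without overlap. Log2 changes by line were 0.49 (WT), 0.53 (C14R) and 0.48 (deletion cells) (average SE 0.03, limma adjusted p = 8.6e-12). LINC01116, the fourth most abundant, was at 53.5 to 70.2 and 54.5 to 65.2 FPKM, and its change of -0.03 was not called (limma adjusted p = 0.45).

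The other 3 of the 5 most abundant rows encode microproteins. LINC00493, now SMIM26, a small mitochondrial protein, fell from 80.4–96.6 FPKM (median 87.7) to 57.1–71.4 (median 63.6), a log2 shift of -0.48 (SE 0.04, limma adjusted p = 2.3e-09). LINC01420, now NBDY, a microprotein of the RNA-decapping machinery in P-bodies, rose from 46.3–64.6 FPKM (median 59.8) to 84.5–107 (median 92.3), a change of 0.65 (SE 0.05, limma adjusted p = 9.1e-10). The days did not overlap for either gene, and the directions were opposite. LINC00998, now SMIM30, overlapped between days, at 52.2 to 62.5 and 54.8 to 70.5 FPKM, with a change of 0.17 (SE 0.04, limma adjusted p = 0.0014) called in C14R alone among the single lines.

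LINC00116, now MTLN, encodes the mitochondrial microprotein mitoregulin. It was at 1.39 to 2.59 and 0.922 to 1.62 FPKM, a change of -0.37 (SE 0.07) that was called in C14R and deletion and not in WT. Of the 8 genes listed for known microproteins 4 met the mean of 0.5 FPKM under their LINC symbol, 1 higher and 1 lower in all 3 lines. Of the 13 rows that RefSeq calls protein-coding, 6 were higher and 2 lower in all 3 lines. Their median change was 0.28, beside 0.22 for the 163 lncRNA rows, of which 54 were higher and 21 lower. The shares over all tested genes were 32.7% higher and 28.4% lower. LINC00890, now SERTM2, which encodes a transmembrane protein, fell from 5.07–6.11 FPKM to 1.87–2.65 FPKM (log2 change -1.05, SE 0.04).

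For 3 of these 13 the table also held a row under the current symbol. LINC00950 and TMEM8B rose together, LINC00950 from 0.537–0.817 FPKM to 2.79–3.93 FPKM (log2 change 1.44) and TMEM8B from a mean of 3.53 to 9.93 FPKM. LINC00341 rose by 0.36, with days that overlapped, while SYNE3 fell from 1.80 to 1.17 FPKM. LINC01279 was not called at -0.11 while CCDC80 fell from 9.32 to 4.33 FPKM. RefSeq holds each pair as 1 gene, and how reads were divided between its rows is not given in the sources used here.

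Of the 178 genes, 9 overlap a microRNA gene, 2 of them higher and 3 lower in all 3 lines. Of all tested genes 32.7% were higher and 28.4% lower by the same rule. LINC00925, now MIR9-3HG, hosts a gene of miR-9, a microRNA of neural progenitors and neurons, and LINC00472 spans genes of the miR-30 family. Both hosts were lower at day 18 without overlap between days, so the mature 5p arms they carry are shown (RefSeq, GRCh38.p14). The seed, bases 2 to 8, is in capitals, and the 3p arms are not printed. The mature microRNAs themselves are not analysed here.
hsa-miR-9-5p in LINC00925: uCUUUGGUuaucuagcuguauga
hsa-miR-30a-5p in LINC00472: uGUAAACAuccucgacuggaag
hsa-miR-30c-5p in LINC00472: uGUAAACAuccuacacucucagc

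The 2 printed miR-30 arms share 1 seed. LINC00925 was at 2.81 to 3.55 FPKM (median 3.12) and 1.07 to 1.53 FPKM (median 1.31), a log2 shift of -0.85 (SE 0.04, limma adjusted p = 6.3e-12). LINC00472 was at 1.21 to 1.66 and 0.673 to 1.04 FPKM (log2 change -0.36, SE 0.05). The third host that fell in all 3 lines was LINC00152 with MIR4435-1. The overlapping genes that rose were LINC01105 with MIR7158 on its strand and LINC00645, which rose by 0.87 (SE 0.07). MIR3171 overlaps LINC00645 on the opposite strand, so LINC00645 is not called its host here.

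LINC00599, the host of a gene of the neuronal microRNA miR-124, changed by 0.21 (SE 0.05), with overlapping days at 2.51 to 3.91 and 3.42 to 4.41 FPKM, and was called in deletion cells alone among the single lines. LINC00632, from whose locus the circular RNA CDR1-AS arises, was at 7.70 to 12.2 and 9.96 to 17.8 FPKM. Its change of 0.41 (SE 0.09) was called in WT and deletion cells, and the row does not separate the circular from the linear RNA. Of the 3 genes that overlap small nucleolar RNA records, LINC00888 (SNHG33) rose by 0.75 (SE 0.06), from 4.14–6.46 FPKM to 8.48–11.8 FPKM. LINC00578 rose by 0.81 (SE 0.09) from under 0.5 FPKM, and LINC00504 was not called at 0.05.

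Genes listed for earlier links to neuroblastoma gave 3 of 4 names, of which 2 fell and 1 rose in all 3 lines. Of all tested genes 28.4% fell and 32.7% rose in all 3 lines. LINC00839 was at 7.23 to 8.77 FPKM (median 8.38) and 4.42 to 5.32 (median 4.91), without overlap (log2 change -0.64, SE 0.04, limma adjusted p = 9.3e-11). LINC01296, now the pseudogene DUXAP9 with near-identical relatives, was at 14.7 to 16.9 and 10.8 to 14 FPKM (-0.36, SE 0.04). LINC00467 rose by 0.43 (SE 0.08), at 14.8 to 20.1 and 19.4 to 27.7 FPKM, with overlap between days. All 5 genes listed for stress and signalling met the mean of 0.5 FPKM. LINC00473 and LINC00657 rose, LINC01021 and LINC00152 fell, and LINC00176, called in C14R and deletion, was higher by 0.37 (SE 0.05) on average, from under 0.5 FPKM.

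Changes of LINC genes were set beside those of the protein-coding gene with the nearest start, where both were tested, which gave 144 pairs. Where the starts were within 10 kb there were 37 pairs, and in 15 of them both genes were called in all 3 lines, 11 in the same direction and 4 in opposite directions. At 10 to 100 kb there were 60 pairs with 20 such cases, 10 in each way, and beyond 100 kb 47 pairs with 15 cases, 9 the same and 6 opposite. Across genes the Pearson correlation of the changes was 0.68 within 10 kb, 0.09 at 10 to 100 kb and 0.30 beyond. The Spearman values were 0.55, 0.08 and 0.16. These are descriptions over genes measured in the same libraries, and genes are not independent replicates. The PDE10A locus gives 2 of the 37 close pairs. Other close pairs called in the same direction also overlap, among them LINC00936 with ATP2B1, LINC00189 with BACH1 and LINC01011 with NQO2. LINC00909 overlaps ZNF407 and went the other way. The part of shared reads in the same-direction pairs was not tested. No share was computed for close pairs of other genes.

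Among the close pairs were 12 divergent ones, with starts within 1 kb on opposite strands and pointing apart, of which 5 were called on both sides, 4 in the same direction. LINC01424 fell by 0.61 beside UBE2G2, a ubiquitin-conjugating enzyme, which fell by 1.19, from 43.8–47.3 FPKM to 18.5–21.2 FPKM. LINC00271 and LINC01301 rose by 0.45 and 0.72 beside AHI1, a gene of primary cilia, with 1.02, and RAB2A, a gene of Golgi transport, with 1.05. LINC01521 went the other way from PATZ1, at 0.57 and -0.29. Farther apart, LINC00890 fell while DCX, the microtubule gene of migrating neurons 99233 bases away, rose from 28.3–33.0 FPKM to 72.3–87.5 FPKM.

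**Figure D4:**
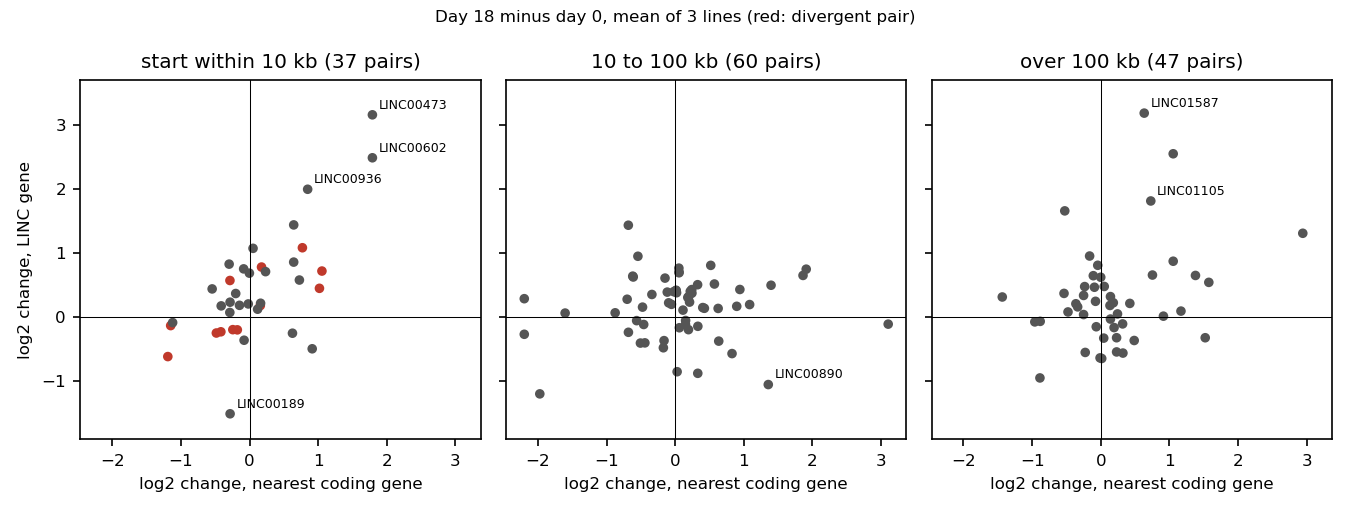
Log2 change of each LINC gene against that of the protein-coding gene with the nearest start, day 18 minus day 0 averaged over the 3 lines, in 3 panels by distance between starts; each point is a pair and red points are divergent pairs. The 37 pairs within 10 kb have a Pearson correlation of 0.68 across genes and the 60 pairs at 10 to 100 kb one of 0.09. The 2 highest points of the first panel share PDE10A.

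The constructs were compared within each day and in their response to differentiation, to ask whether the ZNHIT3 variants alter these RNAs. By limma 0 of the 178 LINC genes differed in any of these 8 comparisons. The background was small too: 0% of all tested genes for C14R against WT at day 0, 0.0268% for deletion against WT at day 0, 0.0335% and 0.0738% at day 18. For C14R against deletion it was 0.0537% and 0.0335%, and for the interactions with day 0% (C14R) and 0.0134% (deletion). ZNHIT3 itself was not called for C14R against WT at day 0, where its libraries did not overlap (limma adjusted p = 0.40). Its C14R interaction with day was not called either (limma adjusted p = 0.30). A count of 0 calls therefore does not show that no difference exists. At an unadjusted p under 0.05 there were 12 LINC genes at day 0 for C14R against WT (6.74%, against 2.90% of all tested genes) and 12 for deletion (6.74%, against 6.12%). At day 18 there were 16 for C14R (8.99%, against 10.8%) and 16 for deletion (8.99%, against 11.2%). Between the variants there were 19 at day 0 (10.7%, against 9.63%) and 7 at day 18 (3.93%, against 10.8%). For the interactions there were 15 with C14R (8.43%, against 5.71%) and 8 with deletion (4.49%, against 7.22%). The smallest adjusted p of any of the 178 was 0.660, 0.501, 0.145 and 0.188 in the comparisons with WT, in the same order.

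The size of construct differences can be set against those between days. The median absolute log2 difference of LINC genes was 0.09 and 0.10 for C14R and deletion against WT at day 0, and 0.10 and 0.09 at day 18. Over all tested genes it was 0.05 and 0.06 at day 0 and 0.07 and 0.07 at day 18. Between days in WT it was 0.40 for LINC genes and 0.38 for all. The log2 day changes of pairs of lines correlated across the 178 genes with Pearson r of 0.94 to 0.95, a description in which lines share genes and days.

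**Figure D5:**
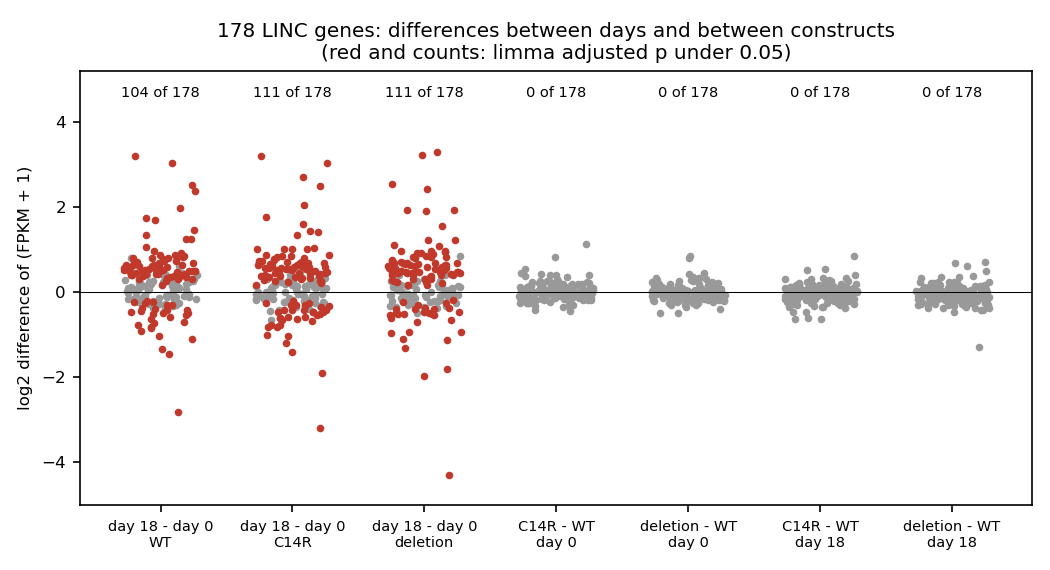
Log2 difference of (FPKM + 1) for each of 178 LINC genes in 7 comparisons, day 18 against day 0 in each line and each variant against WT at each day; points are genes, spread sideways at random, and red marks limma adjusted p under 0.05. Day comparisons call 104, 111 and 111 genes and construct comparisons call 0.

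The LINC genes nearest to a call are given as values. LINC01117, which lies in antisense to the start of LINC01116 on chromosome 2, was at 0.710, 0.341 and 0.672 FPKM in WT at day 0, at 1.86, 1.93 and 1.60 in C14R and at 1.95, 1.72 and 1.61 in deletion cells. Both variants lay above WT without overlap, with log2 differences of 0.83 and 0.82 (SE 0.18 each) and limma adjusted p of 0.66 and 0.50. The 2 comparisons share the WT libraries. At day 18 LINC00682 was at 8, 9.40 and 9.63 FPKM in WT, at 12.6, 10.9 and 11.5 in C14R and at 12.9, 10.6 and 12.2 in deletion cells, with differences of 0.34 and 0.37 and limma adjusted p of 0.18 and 0.19.

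LINC01021 at day 18 was at 1.70, 1.65 and 1.00 FPKM in WT and 0.316, 0.591 and 0.970 in C14R, a difference of -0.60 (SE 0.15, limma adjusted p = 0.15). LINC01003 was at 5.66, 6.38 and 5.98 in WT and 4.43, 3.76 and 4.16 in C14R (-0.45, SE 0.12, limma adjusted p = 0.17). LINC01184 was at 5.11, 5.25 and 6.58 in WT and 4.46, 3.89 and 3.62 in deletion cells (-0.41, SE 0.11, limma adjusted p = 0.19). In each of these the groups did not overlap, and none passed the threshold.

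LINC00152 had the largest difference of deletion cells from WT at day 18, -1.27 (SE 0.35, limma adjusted p = 0.20), and the interaction with day was -1.48 (SE 0.49, limma adjusted p = 0.50). At day 0 the remaining names by smallest adjusted p were LINC01224 (0.27) and LINC00662 (-0.30) for C14R and LINC01481 (-0.39) and LINC00894 (-0.30) for deletion, as log2 differences from WT, none of them called.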

How the data were processed

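RNA-seq was made from ribosomal RNA-depleted total RNA (Ribo-Zero, NEBNext Ultra), per the labels' protocols. The authors deposited 1 table of FPKM per gene symbol with 1 column per library. The submitters' processing notes name TopHat2, STAR, Cufflinks 2.2.1 and hg38, with no role or order; annotation and strand use are not given in the sources used here. FPKM hold no counts, so absolute depth is unknown.

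Columns were matched to samples by title. All tests used limma 3.58.1 (R 4.3.3) on log2(FPKM + 1), which understates changes of low genes, with 6 group means over 18 libraries, a variance trend, and Benjamini-Hochberg adjustment over 14910 genes with a mean of at least 0.5 FPKM (threshold 0.05), the limit that also defines the LINC set. The fit was tested on simulated data. ZNHIT3 was also compared by exact permutation.

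Positions came from GENCODE 29 (162 genes, by symbol or current symbol) and RefSeq GRCh38.p14 (16 genes). LINC00950, LINC00341 and LINC01279 were placed at the whole records of TMEM8B, SYNE3 and CCDC80. Their overlaps and neighbours are therefore those of these records. Of the 178 genes, 175 had a start. Neighbours are coding genes that appear in the table, a restriction added after the values were seen. Promoter windows and microRNAs came from RefSeq, with 141 genes matched.

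Named were the 5 highest genes, the 12 largest rises and falls, the 3 smallest adjusted p per comparison with WT, listed genes and those beside the 0.5 limit; other close neighbours and rows were chosen after their values were seen. The genes and lists were chosen with earlier results of these data known. Alternatives were a pseudocount of 0.1, other filters and scalings, a replicate block, no variance trend, array weights, fewer libraries in the fit and leaving out each library.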

Additional observations from a re-analysis of the deposited data

How the results depend on the processing

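No count of called LINC genes moved by over 1.5 times under the alternatives. Counts of day calls ranged from 83 to 116 in WT, 80 to 112 in C14R, 89 to 115 in deletion and 109 to 138 for the average. With single libraries left out they ranged from 92 to 109, 95 to 114, 105 to 113 and 131 to 138. At a mean of at least 1 FPKM, 41 of the 178 genes drop out by construction. An alternative chosen after seeing the data left out the 4 day 0 libraries with the highest SNORD3A share of the FPKM sum. It keeps only replicate 2 of C14R at day 0, so its calls in all 3 lines are not given. The ranges under the alternatives include it. Each construct comparison kept 0 calls under every alternative run.

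Of 1818 alternative values for 63 results on named genes, 1802 kept direction and side of the threshold, 15 passed it newly and 1 reversed. LINC01116 became higher at day 18, at 0.17, with small RNA genes left out and the rest rescaled, a setting that shifts the median of all genes from 0.03 to 0.20. The lowest levels lie within a few fragments of 0, which limits LINC01522, LINC00311 and LINC01411.

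By correlation over all tested genes the replicate numbers showed no pairing. Deviations of same-numbered libraries correlated at -0.32 to 0.15, 3 of 45 pairs exceeded 0.1, and 2 of 18 libraries correlated best with their own number. The SNORD3A share at day 0 followed the number in part, at 51.5% to 58.6% in replicate 1 and 6.87% to 7.69% in replicate 2. In replicate 3 it was 57.3% (C14R), 8.63% (WT) and 18.6% (deletion). Whether same-numbered libraries were handled together was not tested. With the replicate block 107 LINC genes were called in WT, 105 in C14R, 110 in deletion and 136 for the average, with 60 higher and 24 lower in all 3 lines.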

Other observations

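Several well-known intergenic RNAs fall outside the symbol rule or the mean of 0.5 FPKM, and their rows were looked up after the values had been seen. LINC-PINT, a p53-responsive RNA, had means of 1.91 FPKM at day 0 and 0.729 at day 18, a log2 shift of -0.74 (SE 0.06, limma adjusted p = 6.6e-09). CASC15, a neuroblastoma susceptibility locus RNA also called LINC00340, was at means of 15.8 and 15.4 FPKM and was not called at -0.03 (limma adjusted p = 0.63). TUNAR, a neural RNA that was LINC00617, was at 1.66 and 2.18 FPKM, a change of 0.25 (SE 0.05). Of the neural list, LINC00461 had an overall mean of 0.0175 FPKM and LINC01158 of 0.0431 FPKM, and 0 of its 4 genes reached 0.5 FPKM under a LINC symbol.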
